A study of Mus musculus with 12 samples.

Results

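The Gimap genes encode GTPases of immunity-associated proteins, and their RNA was measured in Dnmt3a-deficient lymphomas, control lymphomas and normal thymocytes of the mouse. The family was taken as Gimap1, Gimap3, Gimap4, Gimap5, Gimap6, Gimap7, Gimap8 and Gimap9. All 8 genes had 1 probe set that names no other gene, so 8 of the 19309 genes tested are described here. The Dnmt3a-deficient group held 4 thymic T-cell lymphomas (labelled Dnmt3a-deficient, FVB/N background, age given as terminal) from mice in which Dnmt3a had been deleted in the blood-forming compartment in the presence of MYC. The control group held 5 thymic lymphomas that MYC had also induced (labelled wild type, FVB/N, terminal). The normal group held 3 samples of non-tumor thymocytes (wild type, FVB/N, 24 dpn as labelled) without a tumor. The promoter that drives MYC, the Cre line behind the deletion and whether each array came from its own animal were not stated in the material used. P-values therefore measure the spread between these samples, which may be technical in part. Age cannot be told apart from tumor state.

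GIMAP proteins share a GTP-binding domain of the AIG1 type, are made mainly in lymphocytes, and sit on membranes of organelles or in the cytosol. They are known for keeping T cells alive: rodents without Gimap5 lose most circulating T cells, and Gimap1 is needed by mature lymphocytes. Several members rise as thymocytes complete positive selection and leave the double-positive stage. The genes lie next to each other on mouse chromosome 6, in the order Gimap8, Gimap9, Gimap4, Gimap6, Gimap7, Gimap1, Gimap5 and Gimap3, with 0 other measured protein-coding genes between them in RefSeq.

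Dnmt3a places methyl groups on cytosines of CG pairs, so the promoters of 3 members are shown with their CG pairs in capitals. Gimap1 and Gimap6 had the largest differences from normal thymocytes, and Gimap5 had the smallest. Each line gives the 250 bases before the RefSeq start site of build GRCm38.p6, 5′ to 3′. They lie at chr6:48738797-48739046 on the plus strand for Gimap1, chr6:48708245-48708494 on the minus strand for Gimap6 and chr6:48745947-48746196 on the plus strand for Gimap5.
Gimap1: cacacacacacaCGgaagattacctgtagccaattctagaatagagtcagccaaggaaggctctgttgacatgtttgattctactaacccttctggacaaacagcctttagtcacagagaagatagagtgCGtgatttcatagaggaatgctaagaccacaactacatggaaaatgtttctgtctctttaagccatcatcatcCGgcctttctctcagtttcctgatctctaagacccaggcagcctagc
Gimap6: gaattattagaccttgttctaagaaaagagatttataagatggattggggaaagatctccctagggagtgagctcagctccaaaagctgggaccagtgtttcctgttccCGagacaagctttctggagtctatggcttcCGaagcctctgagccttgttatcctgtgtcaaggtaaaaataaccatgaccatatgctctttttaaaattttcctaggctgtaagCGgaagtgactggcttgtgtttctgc
Gimap5: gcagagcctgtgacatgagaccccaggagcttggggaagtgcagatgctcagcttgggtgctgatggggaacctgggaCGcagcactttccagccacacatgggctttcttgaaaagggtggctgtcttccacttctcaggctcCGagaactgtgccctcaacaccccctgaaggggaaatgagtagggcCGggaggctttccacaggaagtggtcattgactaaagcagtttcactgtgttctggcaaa

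All 3 stretches held 3 CG pairs each. Over windows of 300 bases, which add the first 50 transcribed bases, the 9 windows of the 8 members (Gimap8 had more than 1 start) held between 2 and 8 CG pairs, with the highest count at Gimap9. The middle value over all 32841 windows in the RefSeq table was 7, and the quartiles were 3 and 20. Methylation itself was not measured here. Both strands of the same windows were searched for 3 motifs. The E-box CACGTG, which MYC binds with MAX, was in the windows of 0 of 8 members and in 7.15% of all windows. The RUNX core TGTGGT was in those of 3 members (Gimap1, Gimap4 and Gimap7) and in 16.8% of all windows. The ETS core GGAAGT was in those of 4 members (Gimap1, Gimap5, Gimap6 and Gimap9) and in 23.8% of all windows. The matches did not overlap each other. A missing match says only that these letters are not in this window.

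As a check of the labels, Dnmt3a was at log2 7.19 to 7.62 in deficient tumors, 8.19 to 9.57 in control tumors and 9.33 to 9.63 in normal thymocytes. Control tumors 1 and 2 stood apart from the other control tumors: over all probe sets they correlated with deficient tumors at a mean r of 0.974 and 0.974, and with their own group at 0.960 and 0.954. For control tumors 3, 4 and 5 the order was the opposite, at 0.951, 0.946 and 0.952 with deficient tumors and 0.966, 0.965 and 0.961 with their own group. The 75th percentile of all probe sets was 8.502 to 8.598 in deficient tumors, 8.54 and 8.51 in control tumors 1 and 2, 8.25 to 8.30 in control tumors 3 to 5 and 8.13 to 8.21 in normal thymocytes. With arrays centred on it, 0 of 8 Gimap genes were called between tumor groups and their median difference was -1.22. Neutrophil markers (8 genes) averaged 8.38 in control tumor 3 and 8.25 in control tumor 4, while they ranged over 5.45 to 6.07 in deficient tumors and 6.57 to 6.97 in normal thymocytes, and the other control tumors had 5.82 to 5.83. Double-positive thymocyte markers (9 genes, among them Rag1, Cd4 and Cd8a) averaged 7.28 to 9.81 in deficient tumors, 7.24 to 9.92 in control tumors and 10.6 to 10.9 in normal thymocytes. In such bulk samples, fewer cells of a type and less RNA per cell cannot be told apart.

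Compared with normal thymocytes, 5 of the 8 Gimap genes were lower in deficient tumors and 0 were higher. Gimap1 and Gimap6 were lower by factors of 7.67 and 6.68, and Gimap9, Gimap7 and Gimap8 by factors of 2.95, 2.72 and 2.06. In control tumors 2 of the 8, Gimap1 and Gimap6, were lower than in normal thymocytes, by factors of 3.07 and 2.68. Between deficient and control tumors all 8 differences were negative and 0 passed the test. The test was limma over all 19309 genes and all 12 arrays, two-sided, and a gene was called at a Benjamini-Hochberg adjusted p under 0.05. All values are log2 expression of a probe set after RMA, a difference is the first group minus the second, and values of different genes are not comparable.

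**Figure D1:**
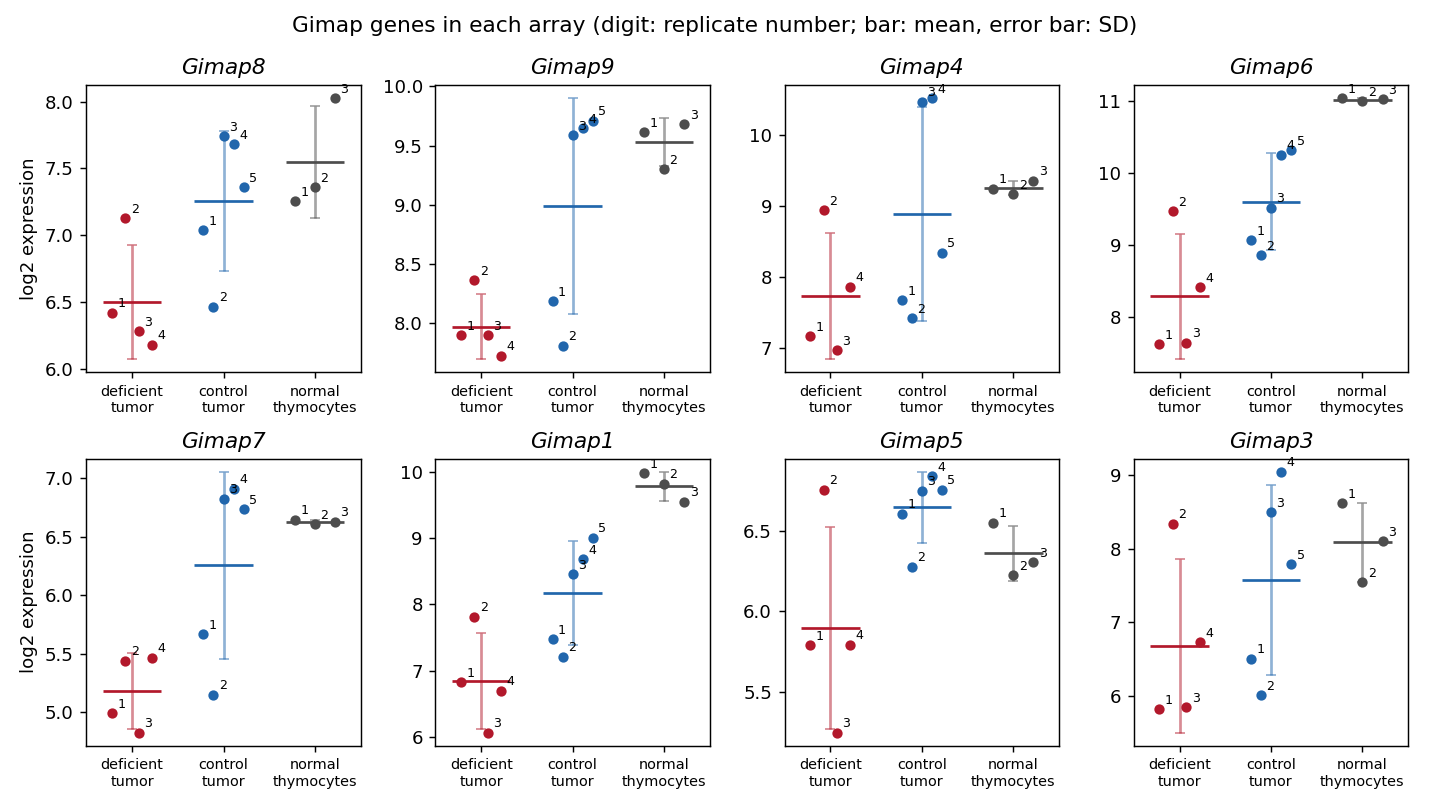
Log2 expression of each Gimap gene (vertical axis) in every array of Dnmt3a-deficient tumors (n = 4), control tumors (n = 5) and normal thymocytes (n = 3). Points are arrays with their replicate number, bars are group means and error bars SDs, and the vertical scale differs between genes. Deficient tumor 2 is the highest deficient tumor for 7 of 8 genes, and control tumor 2 is the lowest control tumor for 8 of 8.

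Gimap1, Gimap3 and Gimap5 belong to the members with a hydrophobic tail that anchors them in membranes. Gimap1 was at 6.82, 7.81, 6.06 and 6.70 in deficient tumors, at 7.47, 7.21, 8.46, 8.68 and 9.01 in control tumors, and at 9.98, 9.82 and 9.55 in normal thymocytes. All 9 tumors lay below all normal thymocytes, while the tumor groups overlapped through deficient tumor 2 and control tumors 1 and 2. The deficient tumors differed from normal thymocytes by -2.94 (SE 0.441, limma adjusted p = 0.000206), the control tumors by -1.62 (SE 0.422, adjusted p = 0.0126). Between deficient and control tumors the difference was -1.32 (SE 0.387, 95% interval -2.16 to -0.48, adjusted p = 0.110), which did not pass.

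Gimap5, whose loss in rodents removes most T cells from blood, differed least. It was at 5.79, 6.76, 5.24 and 5.79 in deficient tumors, at 6.61, 6.28, 6.75, 6.84 and 6.76 in control tumors, and at 6.55, 6.23 and 6.30 in normal thymocytes. Deficient tumors 1, 3 and 4 lay below all other arrays, but deficient tumor 2 lay within the range of the control tumors. Its difference was -0.46 between deficient tumors and normal thymocytes (SE 0.275, adjusted p = 0.202) and -0.75 between deficient and control tumors (SE 0.241, 95% interval -1.27 to -0.23, adjusted p = 0.129). Control tumors differed from normal thymocytes by 0.28 (SE 0.263, adjusted p = 0.477), the only positive one among the members' differences. Without deficient tumor 2 the gene was called in both comparisons of deficient tumors, at -0.75 against normal thymocytes (adjusted p = 0.0120) and -1.04 against control tumors (adjusted p = 0.0254). Leaving out the highest deficient tumor lowers that group by construction. In each comparison the gene was called in 1 of the 12 fits without a single array.

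Gimap3, a close relative of Gimap5 that acts with it in mouse T cell survival, varied widely among tumors. Its values were 5.82, 8.34, 5.85 and 6.73 in deficient tumors, 6.51, 6.01, 8.49, 9.04 and 7.79 in control tumors, and 8.61, 7.54 and 8.10 in normal thymocytes. Deficient tumor 2 and control tumors 3 to 5 reached the level of normal thymocytes, and the other tumors lay below it. No comparison passed: the differences were -1.40 for deficient tumors against normal thymocytes (SE 0.719, adjusted p = 0.144), -0.51 for control tumors against normal thymocytes (SE 0.687, adjusted p = 0.635), and -0.89 for deficient against control tumors (SE 0.631, 95% interval -2.25 to 0.48, adjusted p = 0.445). Without deficient tumor 2, the highest of its group, the difference from normal thymocytes was -1.95 and was called (adjusted p = 0.0374). That fit lowers the group by construction, and it was the only 1 of 12 fits without a single array to call the gene there. Sequences of the probes were not used here, so signal shared between Gimap3 and Gimap5 cannot be told apart.

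Gimap6 binds the autophagy protein GABARAPL2. It was at 7.62, 9.47, 7.64 and 8.41 in deficient tumors, at 9.06, 8.85, 9.52, 10.25 and 10.32 in control tumors, and at 11.04, 10.998 and 11.02 in normal thymocytes. Every tumor lay below every normal sample, and 3 of the 4 deficient tumors lay below every control tumor. The deficient tumors differed from normal thymocytes by -2.74 (SE 0.439, adjusted p = 0.000332) and from control tumors by -1.32 (SE 0.385, 95% interval -2.15 to -0.49, adjusted p = 0.110). The control tumors differed from normal thymocytes by -1.42 (SE 0.419, adjusted p = 0.0249). Without normal thymocytes 1, 2 or 3 this difference of control tumors had adjusted p-values of 0.0735, 0.0763 and 0.0706, and that of Gimap1 had 0.0551 without normal thymocytes 1 and 0.0504 without normal thymocytes 2.

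Gimap4, which speeds the death of T cells that have entered apoptosis, was the member with the widest range among control tumors. Its values were 7.16, 8.93, 6.97 and 7.86 in deficient tumors, 7.67, 7.41, 10.46, 10.51 and 8.34 in control tumors, and 9.24, 9.16 and 9.35 in normal thymocytes. All deficient tumors lay below all normal samples, while control tumors fell on both sides of them. No comparison passed: deficient tumors differed from normal thymocytes by -1.52 (SE 0.721, adjusted p = 0.115) and from control tumors by -1.15 (SE 0.633, 95% interval -2.51 to 0.22, adjusted p = 0.319), and control tumors from normal thymocytes by -0.37 (SE 0.689, adjusted p = 0.743). Control tumors 3 and 4, the highest arrays for Gimap4, were those with high neutrophil markers, whose part in this result was not tested. With both left out, a fit chosen after seeing the data, control tumors differed from normal thymocytes by -1.44 (adjusted p = 0.0299). The tumor groups then differed by -0.08 (adjusted p = 0.963). Leaving out the highest control tumors lowers the control mean by construction, so these values are no independent support. The difference of deficient tumors from normal thymocytes stayed at -1.52, and only its estimate of spread changed (adjusted p = 0.0112).

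Gimap7, whose human form was shown to act as a GTPase through dimers, was at 4.99, 5.44, 4.82 and 5.46 in deficient tumors, at 5.66, 5.15, 6.82, 6.91 and 6.74 in control tumors, and at 6.64, 6.60 and 6.63 in normal thymocytes. Control tumors 1 and 2 lay near or among the deficient tumors and the other control tumors just above the normal samples. The deficient tumors were lower than normal thymocytes by -1.45 on the log2 scale (SE 0.372, adjusted p = 0.00832). Their difference from control tumors was -1.08 (SE 0.327, 95% interval -1.78 to -0.37, adjusted p = 0.116). Control tumors and normal thymocytes differed by -0.37 (SE 0.356, adjusted p = 0.497).

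Gimap9 split the control tumors in the same way. It was at 7.90, 8.36, 7.89 and 7.72 in deficient tumors, at 8.18, 7.81, 9.59, 9.65 and 9.71 in control tumors, and at 9.61, 9.30 and 9.68 in normal thymocytes. Control tumors 1 and 2 fell within the range of the deficient tumors, and control tumors 3 to 5 within or slightly above that of normal thymocytes. The difference of deficient tumors from normal thymocytes was -1.56 (SE 0.417, adjusted p = 0.0101), and that from control tumors -1.02 (SE 0.366, 95% interval -1.81 to -0.23, adjusted p = 0.158). For control tumors against normal thymocytes it was -0.54 (SE 0.399, adjusted p = 0.360).

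Gimap8, the largest protein of the family with more than 1 GTP-binding domain, was at 6.42, 7.13, 6.28 and 6.18 in deficient tumors, at 7.04, 6.47, 7.74, 7.68 and 7.36 in control tumors, and at 7.26, 7.36 and 8.03 in normal thymocytes. Deficient tumors lay below all normal samples, and deficient tumor 2 was the only one above control tumor 1. Deficient tumors differed from normal thymocytes by -1.05 (SE 0.316, adjusted p = 0.0196), and the call ended without normal thymocytes 3 (adjusted p = 0.0985) or deficient tumor 4 (adjusted p = 0.0562). They differed from control tumors by -0.75 (SE 0.278, 95% interval -1.35 to -0.15, adjusted p = 0.163). Control tumors differed from normal thymocytes by -0.29 (SE 0.302, adjusted p = 0.531).

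**Figure D2:**
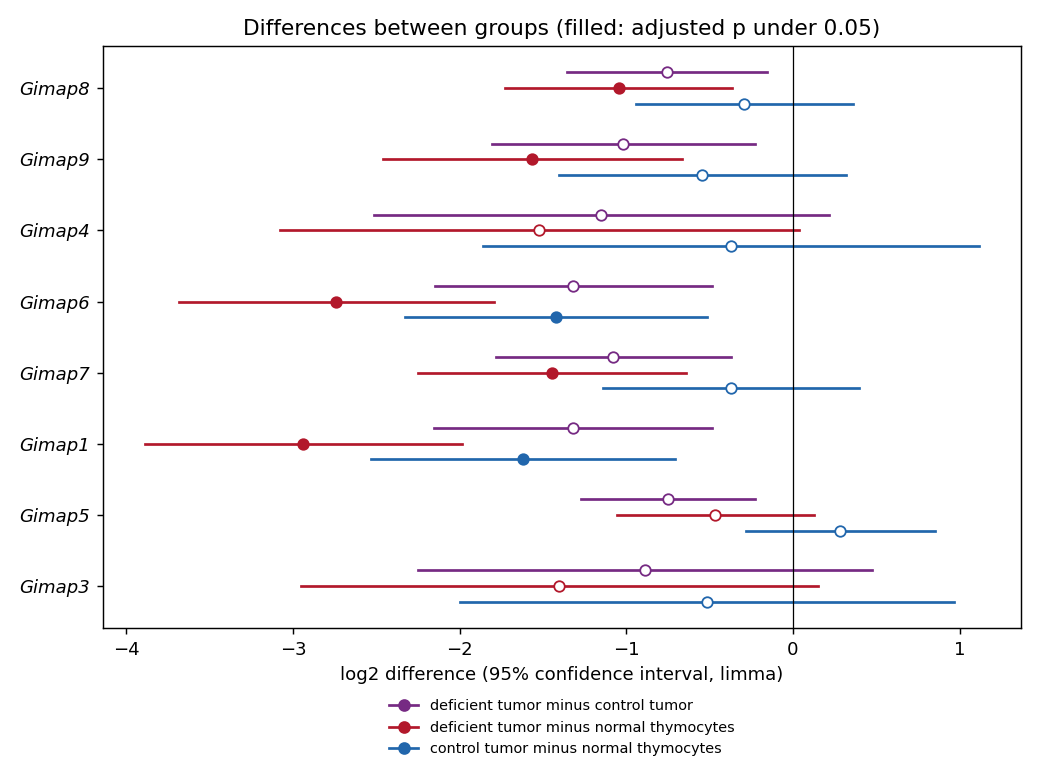
Log2 differences of each Gimap gene (horizontal axis) with 95% confidence intervals from limma for deficient minus control tumors, deficient tumors minus normal thymocytes and control tumors minus normal thymocytes. Filled points have an adjusted p under 0.05, which 5 genes reached for deficient tumors and 2 for control tumors against normal thymocytes, and 0 between the tumor groups.

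Set against all genes, the counts read as follows. In deficient tumors against normal thymocytes, 5 of 8 members were called lower, while 19.0% of all genes were called lower, and 37.6% in either direction. At an unadjusted p under 0.05 the count was also 5, against 25.1% of all genes lower. The difference was negative for 8 of 8 members and 57.8% of all genes. All 5 were lower at least 2-fold, against 4.94% of all genes. The groups did not overlap for 6 members, all lower, and for 26.7% of all genes in that direction. The median difference of the 8 members was -1.48 and that of all genes -0.10.

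In control tumors against normal thymocytes, 2 of 8 members were called lower, against 11.3% of all genes, and both were lower at least 2-fold, against 3.26%. Non-overlapping groups in that direction were found for the same count of members, 2, and for 14.0% of all genes. A negative difference was found for 7 of 8 members and 58.2% of all genes. Here the median of the members was -0.44 and that of all genes -0.08. Both comparisons share the 3 arrays of normal thymocytes. The order of the group means, highest first, was normal thymocytes, control tumors and deficient tumors for 7 members. For Gimap5 it was control tumors, normal thymocytes and deficient tumors, and none of its 3 differences passed.

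In deficient against control tumors, 0 of 8 members were called by limma, where 0.818% of all genes were called in either direction, 0.228% lower and 0.590% higher. At an unadjusted p under 0.05, 6 members were lower and 0 higher, against 7.58% of all genes lower and 12.6% higher. A negative difference was found for 8 of 8 members and for 51.5% of all genes. The tumor groups overlapped for every member, and lower deficient tumors without overlap made up 2.35% of all genes and higher ones 3.80%. The members' median was -1.05 and that of all genes -0.01. The direction was negative for each member in each alternative fit that held it.

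The count between the tumor groups turned on which arrays were in the fit. Without control tumor 2 it was 5 of 8 (Gimap1, Gimap6, Gimap7, Gimap8 and Gimap9), without control tumor 1 it was 1 (Gimap1), and without deficient tumor 2 it was 2 (Gimap5 and Gimap6), all lower. Weighting arrays by their quality gave 7, the exception being Gimap3. The counts over all genes rose too in most of these fits. They were 1482 without control tumor 2, 1012 without control tumor 1, 154 without deficient tumor 2 and 3328 with the weights, against 158 with every array. Without both control tumors 1 and 2 it was 8, at differences of -0.88 to -2.04. These arrays were singled out because they resembled the deficient tumors over all probe sets, so that fit enlarges differences between tumor groups by its construction, and it called 4886 genes of all kinds against 158 with every array. Without control tumors 3 and 4 the count was 0, with 6 called over all genes, and the members' median difference was -0.62.

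The members varied together among tumors. Of the 9 tumors, the highest was control tumor 4 for 4 members, control tumor 5 for 3 and control tumor 3 for 1. The lowest was deficient tumor 3 for 4 members, deficient tumor 1 for 2 and deficient tumor 4 for 2. Within its group, deficient tumor 2 was highest for 7 of 8 members (Gimap7 was the exception), and control tumor 2 was lowest for 8 of 8. The median SD of the members was 0.68 in deficient tumors, 0.79 in control tumors and 0.19 in normal thymocytes, where the median SD of all genes was 0.19, 0.28 and 0.19. Across all 12 arrays, each member's correlation with the mean of the other scaled members lay between 0.73 (Gimap5) and 0.94 (Gimap7), as a description of arrays that fall into groups. Over the 9 tumors alone that correlation lay between 0.86 (Gimap5) and 0.96 (Gimap8), and these arrays fall into groups too.

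**Figure D3:**
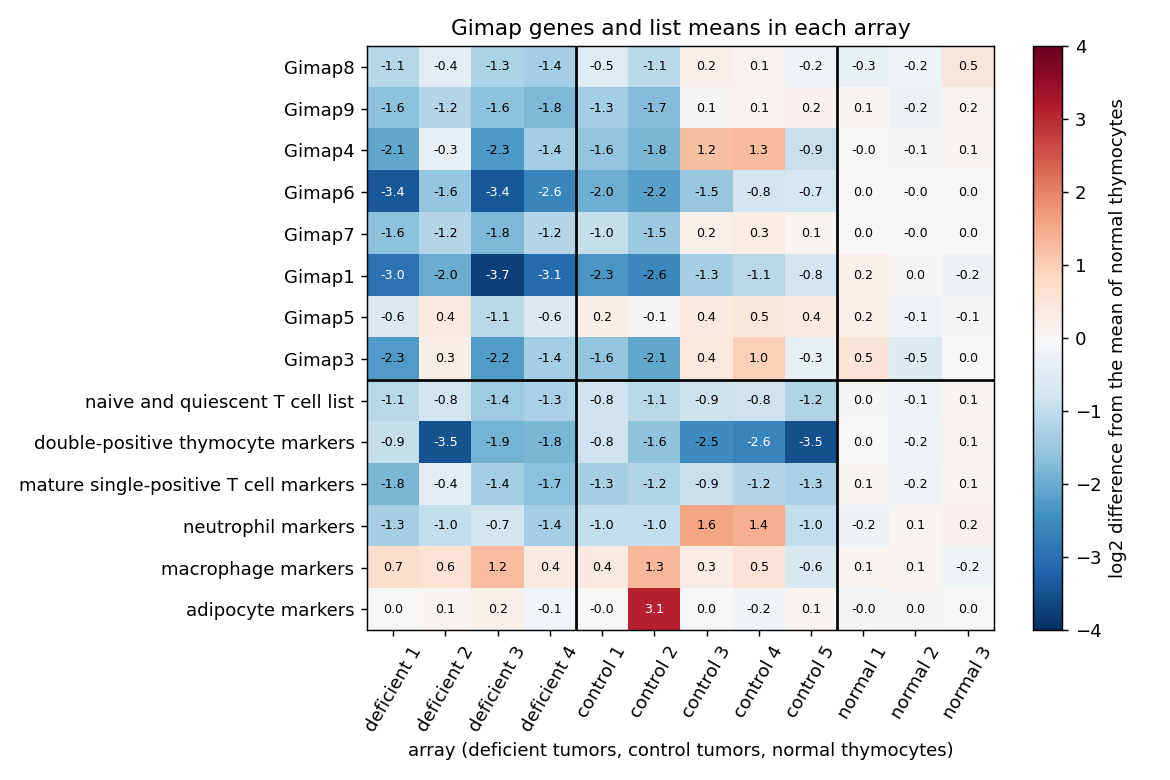
Log2 difference of each Gimap gene and of marker list means from the mean of normal thymocytes, in each array of deficient tumors (left), control tumors (middle) and normal thymocytes (right). Deficient tumors 1, 3 and 4 and control tumors 1 and 2 are low across most Gimap genes, and the adipocyte markers stand out in control tumor 2 alone.

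Thymocyte stage markers also varied among tumors. The double-positive markers averaged 9.81, 7.28, 8.87 and 8.93 in deficient tumors 1 to 4 and 9.92, 9.15, 8.24, 8.11 and 7.24 in control tumors 1 to 5. Deficient tumor 2, in which most Gimap genes were higher than in the other deficient tumors, had the lowest value of its group, and so did control tumor 5 among control tumors. Markers of mature single-positive T cells (9 genes, among them S1pr1, Ccr7 and Cd3e) averaged 9.24 in deficient tumor 2 and 7.84 to 8.29 in the other deficient tumors, against 8.33 to 8.73 in control tumors and 9.50 to 9.75 in normal thymocytes. Of these markers 4 of 9 were lower in deficient tumors than in normal thymocytes and 0 higher, 4 of 9 were lower in control tumors and 0 higher, and 0 were called between the tumor groups. Of the double-positive markers 4 of 9 were lower in deficient tumors, 5 of 9 in control tumors, and 0 between tumor groups. Over all genes, 19.0% were lower and 18.7% higher in deficient tumors than in normal thymocytes, and 11.3% and 13.0% in control tumors. Between the tumor groups 0.818% of all genes were called. The part of a shift in thymocyte stage in the Gimap differences was not tested.

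Markers of other cells that express Gimap genes or could be in a thymus were compared too. Of 7 B cell markers 1, Cd79b, was called higher in deficient than in control tumors (1.63, limma adjusted p = 0.0144), against 0.590% of all genes. The remaining B cell markers were not called and ran from -0.64 (Cd79a) to 0.33 (Ms4a1). The other lists (macrophages, neutrophils, endothelium and fibroblasts, NK cells, dendritic cells, thymic epithelium and adipocytes) had 0 called between tumor groups, against 0.818% of all genes in either direction. The neutrophil list had the largest median there, -1.08 over 8 genes with 0 called, the same direction as the Gimap genes. Against normal thymocytes, 2 of 7 B cell markers were lower and 1 was higher in deficient tumors (19.0% and 18.7% of all genes), and 2 of 7 were lower in control tumors (11.3%). Macrophage markers had 2 of 8 higher in deficient tumors, Adgre1 (0.86, adjusted p = 0.0220) and Itgam (0.86, adjusted p = 0.0130), and 1 of 8 higher in control tumors, with medians of 0.79 and 0.33. In deficient tumors the macrophage markers not called ran from -0.07 (C1qa) to 1.95 (C1qb). Over all genes 18.7% and 13.0% were higher, so these macrophage counts are near those shares. The mean of the macrophage markers was 7.32 to 8.19 in deficient tumors, 6.32 to 8.31 in control tumors and 6.79 to 7.07 in normal thymocytes. Deficient tumors and normal thymocytes thus did not overlap, and 23.0% of all genes were higher without overlap in that comparison. The neutrophil markers had a median of -0.83 in deficient and 0.07 in control tumors against normal thymocytes, with 0 of 8 called. NK cell markers ranged over 5.45 to 5.75 in deficient tumors, 5.32 to 5.81 in control tumors and 5.58 to 5.68 in normal thymocytes. Against normal thymocytes, deficient tumors had 2 of 8 dendritic cell and 2 of 12 endothelium and fibroblast markers lower. Thymic epithelium and NK cells had 1 of 7 each, and adipocytes 0 of 5. Of these lists, only endothelium and fibroblasts had a marker called higher, 1 of 12. In control tumors the only call on these lists was 1 of 12 endothelium and fibroblast markers, lower. These counts were near or below the shares of all genes. The part of these cells in the Gimap differences was not tested.

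Genes flanking the cluster were read from the same fit. Of the 12 nearest measured protein-coding genes, 6 on each side, 5 were lower in deficient tumors than in normal thymocytes, 2 were lower in control tumors and 0 were called between the tumor groups. Over all genes 19.0% were lower in deficient tumors and 11.3% in control tumors, and 0.818% were called between the tumor groups. The 2 of 12 in control tumors are near the share of 11.3%. None was higher in any of the 3 comparisons. The median differences of the 12 were -0.43, -0.46 and -0.16 in these comparisons, against -1.48, -0.44 and -1.05 for the 8 Gimap genes. On the side of Gimap8, Lrrc61 was lower in deficient tumors by -1.55 (SE 0.244, adjusted p = 0.000289) and in control tumors by -1.18 (SE 0.234, adjusted p = 0.00234). Repin1, a zinc finger gene, differed by -1.11, the proton pump subunit gene Atp6v0e2 by -0.95 and Zfp775 by -0.44 in deficient tumors, all called, Zfp775 in 19 of 23 alternatives and not after cyclic loess normalization (-0.20, adjusted p = 0.286). Tmem176b and Tmem176a, which follow Gimap3, differed by -0.78 and -0.43 in deficient tumors against normal thymocytes (adjusted p = 0.210 and 0.352) and by -0.03 and 0.07 between tumor groups (adjusted p = 0.981 and 0.923). Svs1, the farthest gene on that side, was called in deficient tumors (-1.03, adjusted p = 0.00695) and in control tumors (-0.76, adjusted p = 0.0382), the second in 11 of 23 alternatives.

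**Figure D4:**
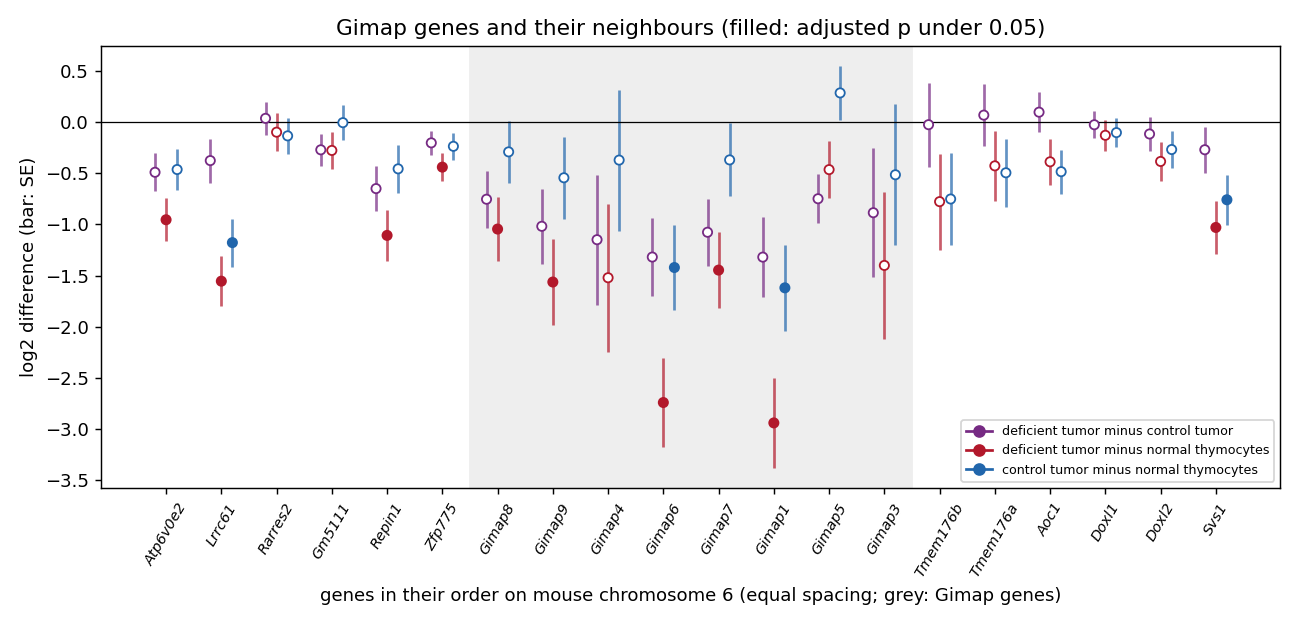
Log2 differences (vertical axis, bars are SEs) of the 8 Gimap genes on grey and of 6 measured protein-coding genes on each side, in their order on mouse chromosome 6. Filled points have an adjusted p under 0.05, and between the tumor groups 0 of the 20 genes reached it, against 0.818% of all genes.

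Genes of naive and quiescent T cells, the state in which GIMAP proteins are abundant, were counted in the same fit. Of 22 measured, 12 were lower and 1 was higher in deficient tumors against normal thymocytes (19.0% and 18.7% of all genes), and likewise 12 were lower and 1 higher in control tumors (11.3% and 13.0%). The medians were -1.36 and -1.002. Klf2, S1pr1, Il7r, Ccr7 and Itgb7 are both on this list and among the mature single-positive markers, so these lists are not independent. In deficient tumors the log2 difference was -2.76 for Ltb, a lymphotoxin chain, and -2.44 for the antiproliferative gene Btg1, while the integrin gene Itga4 was higher by 2.45. In control tumors it was -2.99 for the chromatin organizer gene Satb1, -2.31 for Slfn2, which keeps T cells quiescent, and -1.97 for Bach2, a repressor of effector genes. Between the tumor groups 0.228% of all genes were called lower and 0.818% in either direction. Of the 22 genes 1 was called there, Cd27, a costimulatory gene of the TNF receptor family, at 8.20 in deficient and 9.50 in control tumors. Its difference was -1.30 (SE 0.272, adjusted p = 0.0477), called in 14 of 24 alternatives.

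BCL2 family genes, whose proteins were reported to bind GIMAP proteins, were measured for 11 members. In deficient tumors 6 were lower and 1 was higher than in normal thymocytes (19.0% and 18.7% of all genes). The same counts, 6 and 1, held in control tumors (11.3% and 13.0% of all genes). The 1 of 11 that was higher is below the share of all genes in both. Bcl2l1, which encodes the survival protein BCL-XL, differed by -3.35 in deficient and -3.26 in control tumors, and Bmf, which promotes death, by -2.16 and -2.24. Bid, which also promotes death, was the 1 that was higher, by 1.58 in deficient tumors and by 0.98 in control tumors (called in 10 of 24 alternatives for control tumors). Between the tumor groups 0 of 11 were called by limma, against 0.818% of all genes in either direction. The survival gene Mcl1 had the smallest p there (-0.68, limma adjusted p = 0.105).

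Autophagy and lysosome genes, chosen for the link of GIMAP6 to GABARAPL2, had 3 of 19 lower and 3 higher in deficient tumors, the same counts in control tumors, and 0 called between them. These counts were near or below the shares of all genes in deficient tumors (19.0% lower and 18.7% higher) and near those in control tumors (11.3% and 13.0%). Between the tumor groups 0.818% of all genes were called. Gabarapl2 itself was lower in control tumors than in normal thymocytes (-0.79, SE 0.171, adjusted p = 0.00420), and its difference in deficient tumors was -0.47 (SE 0.179, adjusted p = 0.0530). Lamp2, a lysosomal membrane protein gene, was higher by 2.72 in deficient and 3.38 in control tumors, and Map1lc3a, an LC3 gene, lower by -1.13 and -1.03.

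Other GTPase families were counted in the same way. Over all genes, 19.0% were lower and 18.7% higher in deficient tumors against normal thymocytes, and 11.3% and 13.0% in control tumors. Between the tumor groups 0.818% were called. Of 10 interferon-inducible Irg and Gbp genes, 1 was lower (Gbp4, -1.58) and 1 higher (Gbp3, 0.74, though not after centring on the 75th percentile) in deficient tumors against normal thymocytes, and 2 were lower in control tumors. Irgm1, an interferon-inducible GTPase of defense against microbes, was higher in deficient tumors, at 7.76, than in control tumors, at 6.16 (difference 1.59, SE 0.268, adjusted p = 0.0221, called in 19 of 24 alternatives). Of 16 septin and dynamin genes, 7 were higher and 4 lower in deficient tumors, and 7 higher and 4 lower in control tumors, with 0 called between them. In deficient tumors the Irg and Gbp counts were below the shares of all genes, and the 4 lower septin and dynamin genes were near theirs. The mitochondrial fission gene Dnm1l was higher by 2.76 in deficient and 2.38 in control tumors. In the same order, the fusion gene Opa1 was higher by 1.85 and 1.54, and Septin7 by 2.35 and 2.42. No test of the difference between families was made.

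Transcription factors that act in the T cell lineage had 6 of 15 lower in deficient tumors and 5 of 15 lower in control tumors than in normal thymocytes. Over all genes 19.0% and 11.3% were lower. In both comparisons 0 of 15 were higher, against 18.7% and 13.0% of all genes. Between the tumor groups 1 was lower and 1 higher, against 0.228% and 0.590% of all genes. Gata3, a master regulator of T cell development, was at 8.76 in deficient tumors, 9.83 in control tumors and 10.54 in normal thymocytes, with a difference between tumor groups of -1.08 (SE 0.177, adjusted p = 0.0197, called in 17 of 24 alternatives). Notch1, the receptor that starts the T lineage, was at 9.13, 8.15 and 10.59 in the same order, with a difference of 0.98 (SE 0.207, adjusted p = 0.0477, called in 9 of 24).

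The genes whose pattern over the 12 arrays was most like the mean of the scaled Gimap values were Tnnt1 (Pearson r = 0.968), Tmsb10 (0.968), Tpm3 (0.957), Cdkn2aipnl (0.951) and Actr3 (0.949). Of 19301 other genes, 94 had r above 0.9. Tmsb10, which encodes an actin-binding thymosin, was at 10.51 ± 0.52 in the 4 deficient tumors, 11.89 ± 0.78 in the 5 control tumors and 12.22 ± 0.03 in the 3 normal samples (mean ± SD). Actr3, a subunit of the ARP2/3 complex that nucleates actin, was at 10.24 ± 0.32, 10.98 ± 0.74 and 11.28 ± 0.14 in the same order. Over the 9 tumors alone the closest were Mkrn1 (0.974), Mmd (0.969), Stk17b (0.968), Meltf (0.968) and Cdkn2aipnl (0.966), and 187 genes had r above 0.9. These genes were picked as the highest of many, so their r is a description of these arrays.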

How the data were processed

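Total RNA of thymus, purified with Trizol and a column per the labels' protocols, was measured on 12 single-channel expression arrays. The authors deposited 1 log2 value for each probe set and array. The submitters' processing notes name RMA and Affymetrix Expression Console. Versions, and whether all arrays were normalized together, are not given in the material used. They were used without further normalization. Arrays give no read depth, and precision depends on how many there are per group.

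The platform annotation gives 1 symbol to 20870 of 23858 probe sets, more than 1 to 1453 and none to 1535. Only the first were used, and per gene the set with the highest mean over the 12 arrays was kept, which left 19309 genes (19267 found in RefSeq by gene identifier). No filter on dim genes was set, and the lowest value was 2.40. One limma model (limma 3.58.1, R 4.3.3) covered all 12 arrays as 3 groups and was tested on simulated data. P-values were two-sided and adjusted by Benjamini-Hochberg over all genes of a comparison. Promoter sequences come from RefSeq, GRCm38.p6, and all 8 members matched by symbol.

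Alternatives covered the scaling, the filter, probe set choice, the variance model and the arrays in the fit. The members and lists were chosen with earlier results of these data known. Named genes are all members, the called genes of each list with the largest differences (up to 4 per list and comparison, of which the text prints part), the nearest neighbours and the 5 most similar genes. Columns of values left unused numbered 0.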

Additional observations from a re-analysis of the deposited data

Results flagged for a closer look

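The mean of 5 adipocyte markers was 8.31 in control tumor 2, against 5.07 to 5.31 in the other control tumors, a gap of 0.924 of the group's whole range. The same array had the lowest value among control tumors for all 8 Gimap genes. Among the 36 sets of values checked this way (8 genes and 10 marker lists in both tumor groups), 1 stood out. The rule marks about 1 in 20 groups by chance, so the count of 1 in 36 is no more than chance gives. That count does not weigh the size of the gap, so it gives no reason to dismiss the adipocyte values of control tumor 2. No Gimap gene had such an array in either tumor group. Control tumor 2 also had the highest means of macrophage markers (8.31) and of endothelium and fibroblast markers (6.61) of all 12 arrays. The rule did not mark these. The part of admixed cells in the Gimap values of this array was not tested.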

How the results depend on the processing

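Deficient against control tumors gave 0 called Gimap genes, 0 to 5 without single arrays, 7 with array quality weights and 8 without control tumors 1 and 2. Deficient tumors against normal thymocytes gave 5, 4 to 7 without single arrays, and 8 after centring on the 75th percentile, which put the median of all genes at -0.48 (-0.10 as reported). Control tumors against normal thymocytes gave 2, 0 to 2 without single arrays, and 1 without control tumors 1 and 2. In that fit the differences of Gimap3 (0.36), Gimap4 (0.52), Gimap7 (0.20), Gimap8 (0.0451) and Gimap9 (0.12) turned positive, as did that of Gimap4 with array quality weights (0.15), and none of these was called. The cause was not tested. The filter on dim genes dropped Gimap5 and Gimap7. A fit without control tumors 3 and 4, chosen after seeing the data, gave 0, 6 and 3 in these comparisons. The other alternatives kept each count within 1.5 times.

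Over all genes, 158 were called between tumor groups, 44 lower and 114 higher. Median centring gave 306 (48 and 258), the 75th percentile 140 (80 and 60), a second quantile normalization 102 (45 and 57) and cyclic loess 142 (56 and 86). Array quality weights gave 3328, the tumors alone 1, the fit without control tumors 1 and 2 4886, that without control tumors 3 and 4 6, and those without single arrays 16 to 1482. With the 75th percentile, deficient tumors against normal thymocytes had 9274 lower and 2560 higher (3660 and 3602 as reported), and control tumors 4417 and 1988 (2187 and 2519).

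Of 10 correlations between the deviations of same-numbered arrays, 1 was over 0.1 (range -0.13 to 0.34), that of deficient tumor 1 with control tumor 1. The labels state no pairing. Low correlations cannot exclude a source shared by same-numbered arrays, so whether the numbers pair them is not known. With replicate number as a block the counts of Gimap genes were 0, 5 and 2, and 104 genes were called between tumor groups. Of 55 results of other named genes, 42 were called in every alternative and 0 turned direction. The 5 most similar genes kept 2 to 5 names over all arrays in 16 alternatives, and 0 to 3 over the tumors in the 13 of them that alter the tumor arrays.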
